A study of Mus musculus with 6 samples.

Results

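The serpins are a protein family named for its serine protease inhibitors, and their expression was examined here in livers of mice exposed to the carcinogen diethylnitrosamine (DEN) with carbon tetrachloride (CCl4), called DEN+CCl4, and of control mice. Members were all genes of the deposited table whose name begins with Serpin, leaving out 2 names that contain -ps, and 41 of 25102 genes are described. They were grouped by clade letter into 22 Serpina, 10 Serpinb, 2 Serpine and 2 Serpinf genes and 1 each of Serpinc, Serpind, Serping, Serpinh and Serpini. Sequencing of poly(A) RNA covered 3 DEN+CCl4 and 3 control livers, all from male C57BL/6J mice, in a model of hepatocellular carcinoma that began at 2 weeks of age. The DEN+CCl4 mice had 1 intraperitoneal injection of DEN (1 mg/kg). CCl4 followed some 6 weeks afterwards, 0.2 mL/kg by the same route 2 times a week for at most 14 weeks. Hepatocytes activate DEN, and CCl4 injures hepatocytes. The labels name no vehicle for the controls, no age at sampling, and do not tell tumour from surrounding liver. Since they identify the samples of a group only by number, and say nothing of separate animals, a p-value here covers only the spread among these libraries, which may be technical. Values are FPKM, fragments scaled by gene length and library total, and without counts the depth behind them is unknown. Where 3 values are given for a group, they are those of replicates 1, 2 and 3 in that order.

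Most serpins are suicide inhibitors. A flexible stretch near the carboxyl end, the reactive centre loop, is offered to a protease as bait, and cleavage traps the protease in a distorted complex. Hepatocytes secrete much of the plasma supply: alpha-1-antitrypsin (Serpina1), antithrombin (Serpinc1), C1 inhibitor (Serping1) and antiplasmin (Serpinf2) all come mainly from liver. Some members inhibit nothing, and serve as hormone carriers (Serpina6, Serpina7) or as a collagen chaperone (Serpinh1). Clade B members mostly stay inside cells, many of them in leukocytes and epithelia.

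The libraries were not on a common scale. In DEN+CCl4 replicate 3 the median tested gene stood at 1.19 FPKM, against 3.79 FPKM in replicate 1, 4.46 FPKM in replicate 2 and 3.43 to 3.71 FPKM in the controls. The 37 mitochondrially encoded genes held 64.2% of its FPKM, and 26.6% to 43.0% in the other 5 libraries. Members are therefore given as deposited and, where it matters, after median-ratio scaling (each library divided by the median, over 8323 genes, of its ratios to their geometric means). That scaling moved the median log2 fold change of the 8528 tested genes to 0.01, against -0.27 as deposited. Shares of one member in a sum of members within the same library do not depend on this scale. Other differences between libraries can still enter such shares. DEN+CCl4 replicate 3 had 16447 genes above 0, against 19260 to 20634 in the other 5 libraries. Of the hepatocyte markers, Alb was at 7482 FPKM or more and Apoa1 at 4111 FPKM or more in all 6 libraries, while Tat was at 22.0 FPKM in DEN+CCl4 replicate 3 and 222 to 1012 FPKM elsewhere, and Apob at 4.99 to 53.9 FPKM. All DEN+CCl4 libraries were above all controls in the summed neutrophil markers (8.97 to 24.4 against 3.08 to 8.67 FPKM). The same held for the summed T and NK cell markers (7.78 to 13.6 against 3.19 to 3.97 FPKM). S100a8 and S100a9 made up much of the first sum (8.96 and 12.4 of 24.4 FPKM in DEN+CCl4 replicate 3). Ccl5 made up much of the second (4.55 of 7.78 FPKM in DEN+CCl4 replicate 1). Groups did not overlap for S100a8, Ccl5, Nkg7, Cd8a and Cd3g. They overlapped for every other marker found of these lists, and the mean of Klrb1c was lower in DEN+CCl4 liver. In bulk liver, fewer cells of a type and less RNA per cell cannot be told apart.

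Of the 41 members, 22 averaged 1 FPKM or more across the 6 libraries and were tested (15 Serpina genes, 2 Serpinf genes, and 1 gene each of clades B, C, D, G and H). None passed: 0 of 22 were called higher and 0 lower in DEN+CCl4 liver at a limma adjusted p under 0.05 (smallest adjusted p = 0.462, for Serpina12). Among all 8528 tested genes 0.833% were called higher and 0.645% lower. Without adjustment, 1 member had p under 0.05 and a higher mean (Serpina12) and 0 a lower one, against 2.53% and 5.07% of all tested genes. After median-ratio scaling 0 members passed, as did 0.0% of all genes in either direction. Unadjusted p-values under 0.05 then belonged to 3 members with a higher mean (Serpina12, Serpinh1 and Serpina3g) and 0 with a lower one, against 5.49% and 5.23% of all. With limma array weights, which give each library a weight by its spread, 4 members were called higher (Serpina12, Serpina3g, Serpina3f and Serpinh1) and 0 lower, against 3.37% and 1.57% of all tested genes. The weight of DEN+CCl4 replicate 3 was then 0.0621, beside 3.58 for replicate 1 and 0.422 for replicate 2. As deposited, 8 of the 22 log2 fold changes were positive and 14 negative, with a median of -0.24 beside -0.27 for all tested genes. After median-ratio scaling 13 were positive and 9 negative, with a median of 0.24 beside 0.01, and 5 members had changed sign. What follows describes levels and shares by library, since no difference in a single member passed the test.

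**Figure D1:**
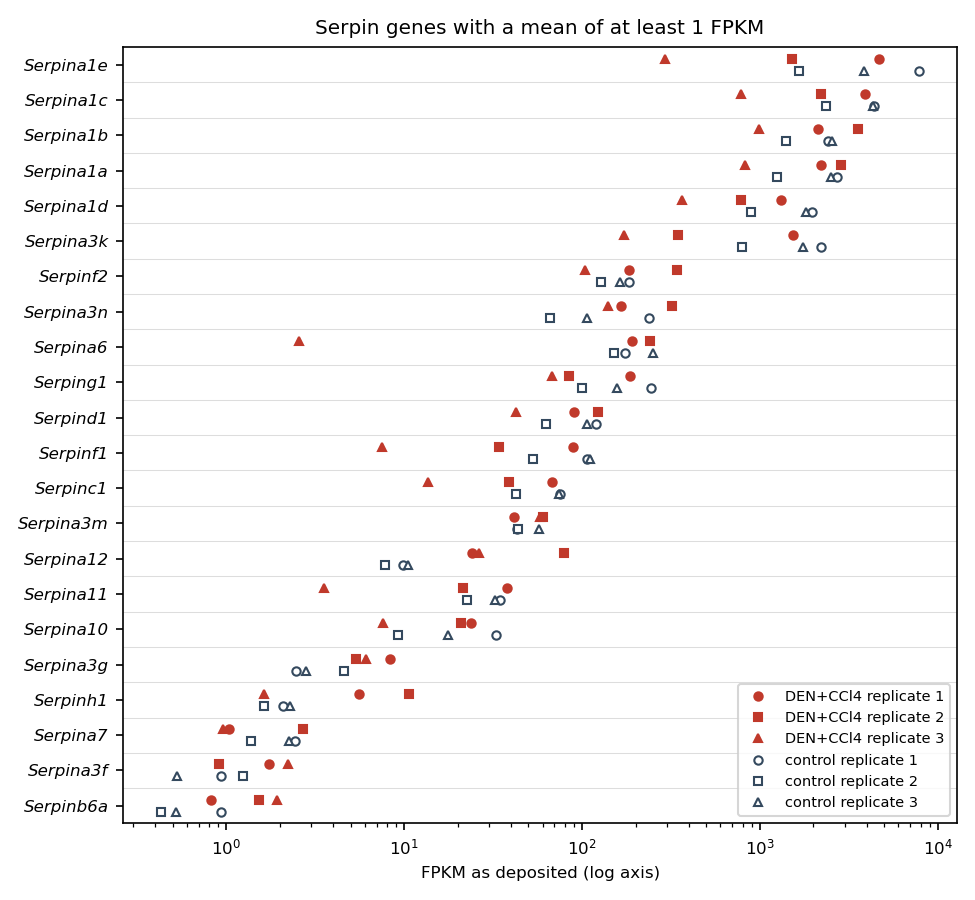
FPKM as deposited (log axis) of the 22 tested Serpin genes, from the highest mean at the top to the lowest. Each filled red symbol is a DEN+CCl4 library and each open symbol a control library. Only for Serpina12 and Serpina3g do the 3 filled symbols lie to the right of all 3 open ones.

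**Figure D2:**
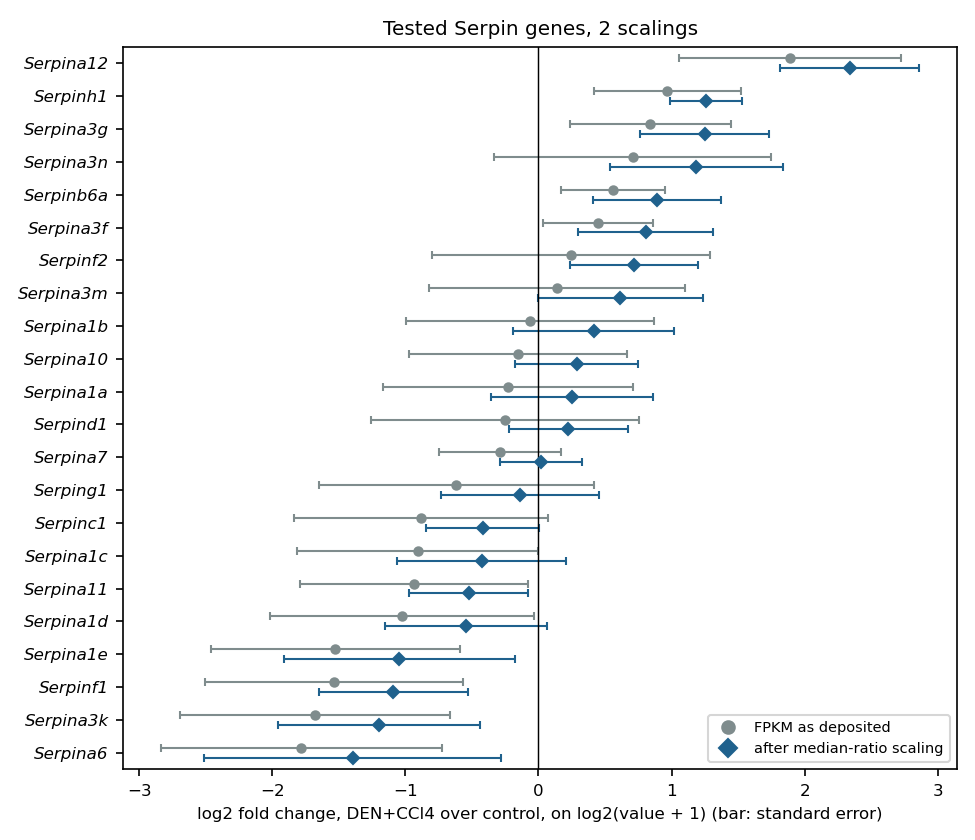
Log2 fold change (DEN+CCl4 over control) of the 22 tested members on log2(value + 1), as deposited (circles) and after median-ratio scaling (diamonds), with bars for the standard error. Scaling shifts the members to the right, and 5 of them cross 0. Serpina12 stands at 1.89 and 2.34, the rightmost in both.

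In 3 of the 41 members every DEN+CCl4 library was above every control (Serpina12, Serpina3g and Serpina3i), and in 0 every one was below. The same held for 3.8% of all 25102 genes above and 4.03% below. Of the 22 tested members it was 2 and 0, against 3.01% and 5.35% of all tested genes. After median-ratio scaling it was 4 members above (Serpina12, Serpinh1, Serpina3h and Serpina3i) and 0 below, against 7.63% and 4.6% of all genes. Of the tested members it was then 2 and 0, against 7.63% and 6.52% of tested genes. The counts depended on single libraries, an alternative chosen after the values were seen. Without DEN+CCl4 replicate 1, 6 members were above all controls and 10 below (6.92% and 13.1% of all genes). The 10 were Serpina1c, Serpina1d, Serpina1e, Serpina3k, Serpina11, Serpinb1a, Serpinc1, Serpine2, Serpinf1 and Serping1. Without DEN+CCl4 replicate 2 there were 4 above and 1 below (4.46% and 8.6%). Without DEN+CCl4 replicate 3 there were 6 above (Serpina12, Serpina3b, Serpina3g, Serpina3h, Serpina3i and Serpinh1) and 0 below (16.5% and 4.31%), and with median-ratio scaling as well 5 and 0 (12.8% and 7.22%). Without control replicate 1 there were 6 above and 0 below (5.57% and 7.46%), and without control replicate 2 there were 3 above and 6 below (5.7% and 11.8%).

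Serpina1, the alpha-1-antitrypsin gene, is duplicated in mice. Its 5 liver copies, Serpina1a to Serpina1e, made up 83.1% to 86.3% of the summed FPKM of all 41 members in each DEN+CCl4 library and 83.5% to 84.7% in each control. Alpha-1-antitrypsin protects tissue from neutrophil elastase. The coding sequences of the 5 copies were 96.3% to 98.5% identical over 1242 aligned bases, and 57.4% to 82.8% of the 31-base words of each coding sequence also occur in another Serpin gene of the table. Reads may thus be split between the copies by the authors' counting, and single copies are uncertain. Of 86 variable columns in the alignment, 20 fall into the 90 bases printed here, the window with the most, where the median window holds 5. The stretch lies near the 3′ end of the coding sequence, the part of a serpin gene that encodes the reactive centre loop. It is shown because it holds the most bases that can tell the copies apart. Sequences are from GENCODE M21 (GRCm38), 5′ to 3′, coding bases 1172 to 1261 in Serpina1a, whose annotated coding sequence is longer at its start, and 1103 to 1192 in the others. Capitals mark columns that differ among the 5.
Serpina1a: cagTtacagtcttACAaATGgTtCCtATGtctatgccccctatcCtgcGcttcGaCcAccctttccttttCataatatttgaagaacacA
Serpina1b: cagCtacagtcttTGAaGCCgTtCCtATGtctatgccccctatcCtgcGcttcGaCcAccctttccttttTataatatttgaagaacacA
Serpina1c: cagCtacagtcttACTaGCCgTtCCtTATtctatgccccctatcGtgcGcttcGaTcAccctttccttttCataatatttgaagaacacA
Serpina1d: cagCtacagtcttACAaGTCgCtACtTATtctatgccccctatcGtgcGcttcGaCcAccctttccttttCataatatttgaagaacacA
Serpina1e: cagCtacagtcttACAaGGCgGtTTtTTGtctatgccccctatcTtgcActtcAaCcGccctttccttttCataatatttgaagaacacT
This window was searched for a triplet that Serpina1a shares with Serpina1b and Serpina1c with Serpina1d, and that differs in Serpina1e. Columns 27 to 29 hold such a triplet, so this pairing was set by the search. Over the whole alignment Serpina1a was closest to Serpina1c (98.5% identical), and 97.0% identical to Serpina1b. Serpina1e differed from Serpina1a at 13 of the 90 columns, Serpina1c at 10, Serpina1d at 9 and Serpina1b at 7.

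The start-proximal sequence of the same 5 copies was compared in 1 window. In the RefSeq promoter table (GRCm38.p6) each holds the letters GTTAAT, a core of the sites bound by the liver factor HNF1, within the 250 bases before its annotated start. On either strand, 6.43% of all 32851 promoters of the table hold these letters, as do 8 of the 33 members found in it. The 70 bases around it are printed because the copies that share them differ in level, with GTTAAT in capitals. All lie on the minus strand of chromosome 12, Serpina1a at chr12:103863625-103863694, Serpina1b at chr12:103738200-103738269, Serpina1c at chr12:103904962-103905031, Serpina1d at chr12:103773634-103773703 and Serpina1e at chr12:103956960-103957029.
Serpina1a: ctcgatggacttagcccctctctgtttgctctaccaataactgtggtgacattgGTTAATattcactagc
Serpina1b: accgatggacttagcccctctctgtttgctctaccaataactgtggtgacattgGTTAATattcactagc
Serpina1c: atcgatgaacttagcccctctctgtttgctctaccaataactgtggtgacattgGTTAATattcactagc
Serpina1d: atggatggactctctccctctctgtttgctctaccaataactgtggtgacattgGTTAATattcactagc
Serpina1e: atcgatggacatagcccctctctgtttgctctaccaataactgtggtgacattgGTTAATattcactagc
The 5 copies are identical at 61 of the 70 positions, with an unbroken run of 55. A match is a description of the letters and not evidence of binding.

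Serpina1e had the highest mean of all members and the widest range. It stood at 4679, 1516 and 295 FPKM in the DEN+CCl4 livers, against 7854, 1657 and 3848 FPKM in control replicates 1, 2 and 3 (2163 ± 2263 and 4453 ± 3143 FPKM, SD, n = 3; log2 fold change -1.53 ± 0.94 SE, limma adjusted p = 0.841; -0.47 without DEN+CCl4 replicate 3 and -2.46 without replicate 1). The groups overlapped, since DEN+CCl4 replicate 1 was above 2 controls. Serpina1c stood at 3903, 2215 and 782 FPKM in DEN+CCl4 liver and 4387, 2358 and 4317 FPKM in controls. Serpina1d, the copy with the lowest mean, was at 1316, 779 and 366 FPKM against 1974, 891 and 1811 FPKM. For both, DEN+CCl4 replicates 2 and 3 were below all controls as deposited. After median-ratio scaling replicate 3 was above the lowest control (2195 against 2039 scaled FPKM for Serpina1c and 1028 against 771 for Serpina1d). Serpina1a was at 2218, 2864 and 821 FPKM in DEN+CCl4 liver and 2711, 1242 and 2496 FPKM in controls. Serpina1b was at 2122, 3573 and 985 FPKM against 2404, 1406 and 2540 FPKM. In these 2 copies DEN+CCl4 replicate 2 was the highest library of all 6 and replicate 3 the lowest as deposited. After median-ratio scaling replicate 3 was the highest for Serpina1b (2766 scaled FPKM) and came after control replicate 1 for Serpina1a (2306 in DEN+CCl4 replicate 3 and 2324 in that control). The 5 limma adjusted p-values were 0.841 (Serpina1e) to 1.00 (Serpina1b), and after median-ratio scaling 0.689 to 0.901.

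While the combined share of the 5 copies among all members was similar in every library, the mix of copies was not. Serpina1e supplied 32.9%, 13.8% and 9.07% of the Serpina1a-e sum in DEN+CCl4 replicates 1, 2 and 3, against 40.6%, 21.9% and 25.6% in the controls. Replicates 2 and 3 were below every control and replicate 1 among them. Serpina1a and Serpina1b, paired by the triplet that was searched for, together supplied 30.5%, 58.8% and 55.6% in DEN+CCl4 liver and 26.5%, 35.1% and 33.5% in controls. Here too DEN+CCl4 replicate 1 lay within the range of the controls, with the other 2 above it. Serpina1c and Serpina1d together supplied 36.7%, 27.4% and 35.3% against 32.9%, 43.0% and 40.8%, with overlap. The ratio of Serpina1b to Serpina1e was 0.454, 2.36 and 3.34 in DEN+CCl4 replicates 1, 2 and 3 and 0.306, 0.849 and 0.660 in the controls. As deposited, these 2 had the highest and lowest log2 fold change of the 5 copies (-0.07 and -1.53), so the pair shows their widest contrast. Because the copies share most of their sequence, how far these shares depend on the assignment of reads was not tested.

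**Figure D3:**
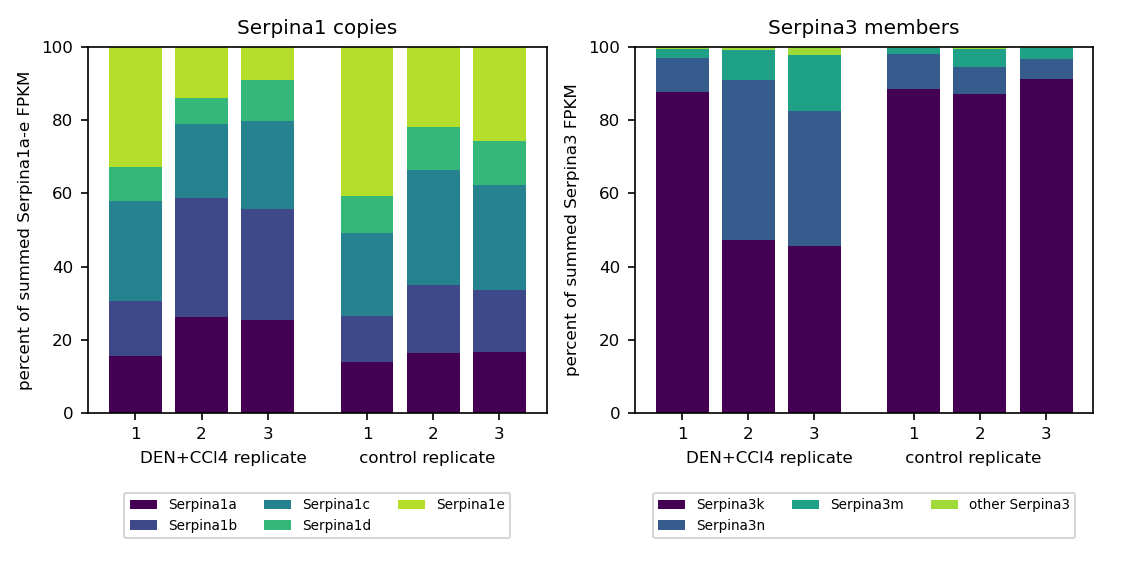
Stacked bars of the percent of summed FPKM that each Serpina1 copy (left) and each Serpina3 member (right) takes within a library, DEN+CCl4 replicates 1 to 3 first and control replicates 1 to 3 after them. In DEN+CCl4 replicates 2 and 3 Serpina1e takes 13.8% and 9.07% and Serpina3n 43.6% and 36.8%, while DEN+CCl4 replicate 1 resembles the controls in both panels.

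The Serpina3 group descends from the ancestor of human alpha-1-antichymotrypsin and has expanded in rodents. Serpina3k, a kallikrein-binding plasma protein of hepatocytes, was its most abundant member. It stood at 1540, 348 and 173 FPKM in the DEN+CCl4 livers, against 2205, 791 and 1757 FPKM in the controls (687 ± 744 and 1584 ± 723 FPKM, SD, n = 3; log2 fold change -1.68 ± 1.01 SE, limma adjusted p = 0.830; -0.99 without DEN+CCl4 replicate 3 and -2.56 without replicate 1). DEN+CCl4 replicates 2 and 3 were below all controls, and replicate 1 was not. Serpina3n, an acute phase protein that inhibits granzyme B, stood at 166, 320 and 140 FPKM in DEN+CCl4 liver and 239, 66.3 and 107 FPKM in controls (log2 fold change 0.71 ± 1.04 SE, limma adjusted p = 0.996). The groups overlapped because control replicate 1 had the second highest value. In that control some other acute phase genes were high as well. Saa1 read 160, 5.96 and 1.26 FPKM in DEN+CCl4 liver and 683, 2.20 and 3.69 FPKM in controls. Others were not: among the controls, Hamp (2042, 4840 and 3825 FPKM), Il6ra and Il1r1 were lowest in replicate 1. Of 22 tested acute phase genes 0 were called, with a median log2 fold change of -0.68 beside -0.27 for all tested genes (-0.36 and 0.01 after scaling). Without DEN+CCl4 replicate 1, 1 was called higher (Lcn2) and 4 lower (Cebpb, Hamp, Orm3 and Saa3), against 1.42% and 3.21% of all. Their most abundant members were Hamp, the iron hormone hepcidin, at 1957 ± 2229 against 3569 ± 1417 FPKM, and Hpx, haemopexin, at 1616 ± 1236 against 2401 ± 2357 FPKM. The part of that response in the Serpina3n values was not tested.

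Within the summed Serpina3 FPKM, Serpina3k held 87.6%, 47.3% and 45.6% in DEN+CCl4 replicates 1, 2 and 3 and 88.5%, 87.2% and 91.3% in the controls. Serpina3n held 9.46%, 43.6% and 36.8% in DEN+CCl4 liver and 9.59%, 7.31% and 5.54% in controls. The ratio of Serpina3n to Serpina3k was thus 0.108, 0.920 and 0.806 in DEN+CCl4 liver, against 0.108, 0.0839 and 0.0607 in controls. DEN+CCl4 replicate 1 differed from control replicate 1 only in later digits, and replicates 2 and 3 were above every control. The 2 genes share less sequence with other members than the Serpina1 copies do. Of the 31-base words of the Serpina3k coding sequence 34.1% occur in any other member, and 29.3% of those of Serpina3n. The closest member was Serpina3m for Serpina3k (29.8% of words) and Serpina3f for Serpina3n (9.78%). Serpina3m was at 41.5, 60.1 and 58.0 FPKM in DEN+CCl4 liver and 43.1, 43.6 and 57.4 FPKM in controls, which overlapped. Its annotated exons overlap those of Serpina3k on the same strand, so these 2 are uncertain against each other.

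Serpina3g, also called Spi2A, inhibits cathepsins inside leukocytes and other cells. It stood at 8.37, 5.33 and 6.12 FPKM in the DEN+CCl4 livers, against 2.46, 4.60 and 2.81 FPKM in the controls (6.61 ± 1.58 and 3.29 ± 1.15 FPKM, SD, n = 3). All 3 DEN+CCl4 libraries were above all controls, by a narrow margin in replicate 2. The log2 fold change of 0.84 ± 0.60 SE did not pass (limma adjusted p = 0.946). After median-ratio scaling the groups overlapped, with DEN+CCl4 replicate 2 at 3.89 and control replicate 2 at 3.98 scaled FPKM. Serpina3i, at 0.07, 0.23 and 0.37 FPKM in DEN+CCl4 liver and 0, 0.02 and 0 FPKM in controls, was too low to be tested, and did not overlap under either scaling. Serpina3f stood at 1.73, 0.91 and 2.22 FPKM against 0.93, 1.25 and 0.53 FPKM, with overlap. As deposited, the neutrophil, T and NK cell marker sums given above, which rest largely on S100a8, S100a9 and Ccl5, were also higher in all 3 DEN+CCl4 libraries. These sums were not compared after scaling. S100a8, a calcium-binding protein of neutrophils, passed the test (limma adjusted p = 0.0336), at 4.51 ± 3.96 and 0.507 ± 0.223 FPKM. Of its 8-member list 7 were found and 3 tested, with 1 called higher, against 0.833% of all tested genes. That call was lost after median-ratio scaling, where 0.0% of all genes were called. Of the 8 T and NK cell markers 2 were tested and 0 called, and in both lists no marker was at 0 in all libraries. The part of these cells in the Serpina3g values was not tested.

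Serpina3g, Serpina3i and Serpina3f each hold the STAT motif TTCNNNGAA (the same letters on both strands) within 250 bases before their start. In all, 6 of the 33 members in the promoter table and 7.02% of all its promoters do. As above, members are counted as genes and the percentage counts promoters, which is not like for like. The others of the 6 are Serpina1f, near 0 FPKM, Serpina11 (log2 fold change -0.93) and Serpinb6a (0.56). Serpina12, whose groups did not overlap either, holds no such match. Whether the motif goes with the level of a member was not tested. The 49 bases around the match are shown for 3 genes picked by their values, 2 of which had non-overlapping groups as deposited. Beside them is the stretch of the Serpina3n promoter that resembles the Serpina3g one most. Capitals mark the 9 motif positions. All are on the plus strand of chromosome 12 (GRCm38.p6), Serpina3g at chr12:104236094-104236142, Serpina3i at chr12:104263000-104263048, Serpina3f at chr12:104214403-104214451 and Serpina3n at chr12:104406565-104406613.
Serpina3g: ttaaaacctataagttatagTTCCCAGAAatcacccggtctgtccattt
Serpina3i: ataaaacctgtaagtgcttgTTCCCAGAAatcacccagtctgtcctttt
Serpina3f: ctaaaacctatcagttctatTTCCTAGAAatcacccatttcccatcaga
Serpina3n: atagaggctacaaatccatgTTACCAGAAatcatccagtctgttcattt
The Serpina3n stretch matches that of Serpina3g at 35 of 49 positions and differs from it at 1 of the 9 motif positions.

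Serpina12 encodes vaspin, a secreted inhibitor of kallikrein 7 that was described in visceral fat of obese rats and is also made in liver. The gene (ENSMUSG00000041567) lies on chromosome 12, 104028769 to 104044443, minus strand, between the Serpina1 and Serpina3 groups. It stood at 23.9, 79.7 and 26.4 FPKM in the DEN+CCl4 livers, against 9.80, 7.78 and 10.5 FPKM in the controls. Every DEN+CCl4 library was at least 2 times the highest control. The means were 43.3 ± 31.5 and 9.35 ± 1.40 FPKM (SD, n = 3), a ratio of 4.64. The log2 fold change of 1.89 ± 0.83 SE had an unadjusted p of 0.0246 and did not pass over all genes (limma adjusted p = 0.462). After median-ratio scaling the 6 values were 18.7, 58.1 and 74.1 against 8.40, 6.73 and 8.31 scaled FPKM (log2 fold change 2.34 ± 0.52 SE, limma adjusted p = 0.432). None of its coding 31-base words occurs in another Serpin gene of the table, so unlike the Serpina1 copies it shares no such word with another member.

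**Figure D4:**
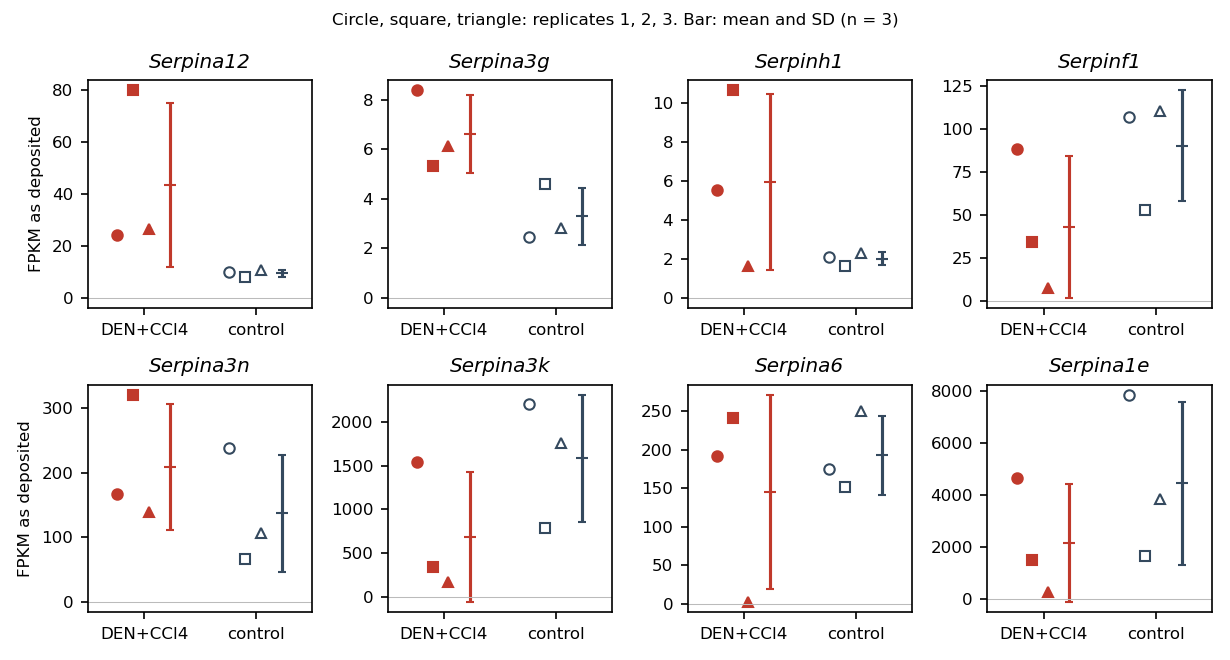
FPKM as deposited of 8 members chosen after their values were seen, with DEN+CCl4 libraries (filled) to the left of controls (open) in each panel. Circles, squares and triangles are replicates 1, 2 and 3, and the bars give mean and SD (n = 3). The Serpina12 and Serpina3g groups do not overlap, and Serpina6 is low in DEN+CCl4 replicate 3 alone.

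The hormone carriers have lost inhibitory activity. Serpina6, corticosteroid-binding globulin, stood at 192, 241 and 2.57 FPKM in the DEN+CCl4 livers, against 175, 152 and 250.3 FPKM in the controls (log2 fold change -1.78 ± 1.05 SE, limma adjusted p = 0.800). DEN+CCl4 replicates 1 and 2 were within the range of the controls, and replicate 3 was far below it. After median-ratio scaling replicate 3 was still the lowest, at 7.21 against 131 to 199 scaled FPKM in the controls. Without replicate 3 the log2 fold change was 0.19 (limma adjusted p = 0.907), so its sign rested on that library. Serpina7, thyroxine-binding globulin on the X chromosome, stood at 1.03, 2.69 and 0.96 FPKM against 2.45, 1.38 and 2.25 FPKM, with overlap. Of 7 tested plasma carriers and related genes 0 were called, with a median log2 fold change of -0.40 (0.08 after scaling). Without DEN+CCl4 replicate 1, where 1.42% of all tested genes were called higher and 3.21% lower, 1 was called lower (Dio1). Alb was at 14563 ± 8832 and 17540 ± 5269 FPKM, and the thyroxine carrier Ttr at 2151 ± 1956 and 4370 ± 1586 FPKM.

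**Figure D5:**
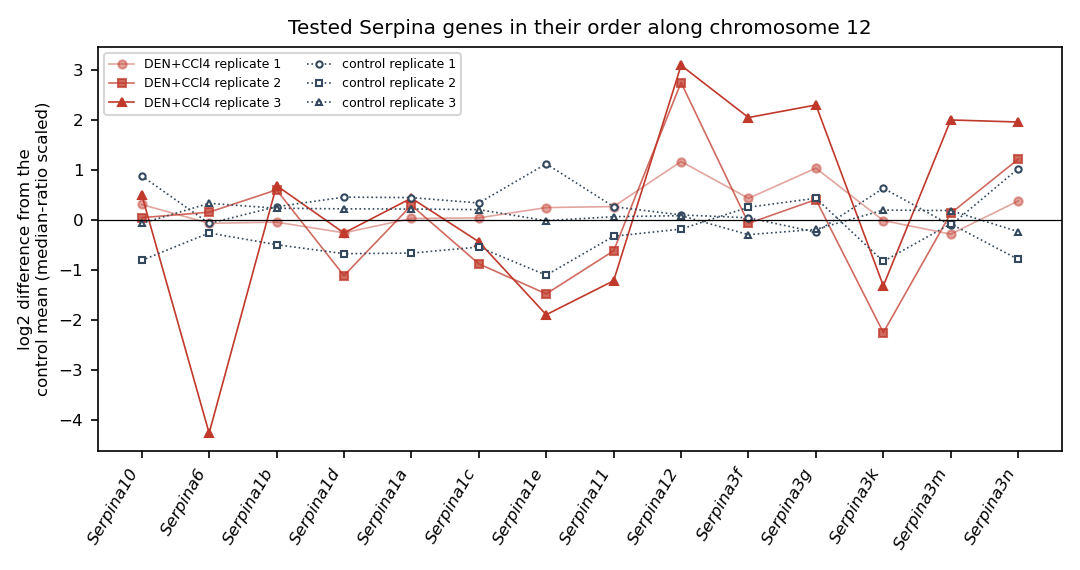
Difference from the control mean, on log2(median-ratio scaled FPKM + 1), of the 14 tested Serpina genes of chromosome 12 in their order along the chromosome. Solid lines are DEN+CCl4 libraries and dotted lines controls. The points of Serpina12 are at 1.17, 2.75 and 3.10 for DEN+CCl4 replicates 1, 2 and 3, and replicate 3 reaches -4.27 at Serpina6, between genes with much smaller differences.

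Among the tested Serpina genes of chromosome 12, differences from the control mean went both ways in every library after median-ratio scaling. Of the 41 members 21 lie on chromosome 12 between 103614786 and 104414329 (GRCm38). After median-ratio scaling, neighbours in DEN+CCl4 replicate 3 ranged on the log2 scale from -4.27 at Serpina6 and -1.90 at Serpina1e to 3.10 at Serpina12 and 2.30 at Serpina3g. DEN+CCl4 replicate 2 ranged from -2.26 at Serpina3k to 2.75 at Serpina12, and replicate 1 only from -0.29 at Serpina3m to 1.17 at Serpina12. Controls ranged from -1.11 to 1.12, both at Serpina1e, a wider span than that of DEN+CCl4 replicate 1. Whether the cluster moved together was not tested. Serpina10, the protein Z-dependent inhibitor of factor Xa, is the outermost member on one side, at 23.6, 20.9 and 7.61 FPKM in DEN+CCl4 liver and 32.7, 9.23 and 17.6 FPKM in controls. Serpina11, which shares annotated exon bases with a processed transcript on its strand, stood at 38.1, 21.5 and 3.56 FPKM against 34.7, 22.4 and 32.4 FPKM. In both, replicate 3 was the lowest library as deposited. Scaling reversed the sign for Serpina10 (log2 fold change -0.16 as deposited and 0.29 scaled).

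Among the regulators of clotting, Serpinc1, antithrombin, stood at 67.8, 38.7 and 13.6 FPKM in the DEN+CCl4 livers and 75.1, 42.4 and 74.3 FPKM in the controls (log2 fold change -0.88 ± 0.95 SE, limma adjusted p = 0.996). Replicates 2 and 3 were below all controls, and after scaling replicate 3, at 38.1, was above the lowest control, at 36.6. Serpind1, heparin cofactor II, a thrombin inhibitor, stood at 90.6, 123 and 42.5 FPKM against 120, 62.6 and 107 FPKM, with overlap. Of 13 tested coagulation proteases and substrates 0 were called, with a median log2 fold change of -0.52 (-0.07 after scaling). Fgb, the fibrinogen beta chain, was at 308 ± 38.7 and 315 ± 148 FPKM, and Proc, protein C, at 210 ± 144 and 360 ± 59.0 FPKM.

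In fibrinolysis, the dissolution of clots, Serpinf2 (antiplasmin) is the main inhibitor of plasmin. It stood at 183, 340 and 104 FPKM in DEN+CCl4 liver and 184, 129 and 164 FPKM in controls (log2 fold change 0.24 ± 1.04 SE, limma adjusted p = 0.996). As deposited replicate 2 was above all controls and replicate 3 below them. After median-ratio scaling replicate 3 was the highest library, at 143, 248 and 291 against 158, 111 and 131 scaled FPKM, and the groups still overlapped. Of 8 tested fibrinolysis genes 0 were called, with a median log2 fold change of -0.82 (-0.34 after scaling). Without DEN+CCl4 replicate 1, 1 was called higher (Anxa2), against 1.42% of all tested genes. Vtn, the plasma and matrix protein vitronectin, was at 775 ± 675 and 1240 ± 328 FPKM, and Hrg, histidine-rich glycoprotein, at 389 ± 246 and 604 ± 199 FPKM.

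Serpinf1, pigment epithelium-derived factor, an antiangiogenic protein without inhibitory activity, lies next to Serpinf2 on chromosome 11. It stood at 88.5, 34.2 and 7.52 FPKM in the DEN+CCl4 livers, against 107, 53.1 and 111 FPKM in the controls (43.4 ± 41.2 and 90.4 ± 32.3 FPKM, SD, n = 3; log2 fold change -1.54 ± 0.97 SE, limma adjusted p = 0.862; -0.63 without DEN+CCl4 replicate 3 and -2.33 without replicate 1). Replicates 2 and 3 were below all controls, also after scaling (24.9 and 21.1 against 45.9 to 92.0 scaled FPKM). The ratio of Serpinf2 to its neighbour Serpinf1 was 2.06, 9.94 and 13.8 in DEN+CCl4 liver and 1.71, 2.42 and 1.48 in controls, with replicate 1 below control replicate 2.

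Serping1, C1 inhibitor, restrains the complement proteases C1r and C1s and plasma kallikrein. It stood at 186, 84.1 and 67.6 FPKM in DEN+CCl4 liver and 244, 100.3 and 158 FPKM in controls (log2 fold change -0.62 ± 1.03 SE, limma adjusted p = 0.996), with replicates 2 and 3 below all controls as deposited and replicate 3 above 2 of them after scaling. Of 12 tested genes of the C1 and lectin pathway 0 were called, with a median log2 fold change of -0.45 (-0.01 after scaling). Without DEN+CCl4 replicate 1, 2 were called lower, the lectins Mbl1 and Mbl2, against 3.21% of all tested genes. C3 was at 373 ± 152 and 485 ± 260.3 FPKM and C4b at 145 ± 74.0 and 128 ± 31.7 FPKM.

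Serpinh1, also called HSP47, is a chaperone of the endoplasmic reticulum that binds procollagen, most abundant in collagen-making cells such as stellate cells. It stood at 5.54, 10.7 and 1.62 FPKM in the DEN+CCl4 livers, against 2.09, 1.64 and 2.28 FPKM in the controls (5.94 ± 4.54 and 2.00 ± 0.329 FPKM, SD, n = 3; log2 fold change 0.97 ± 0.55 SE, limma adjusted p = 0.776). Replicates 1 and 2 were above all controls and replicate 3 below them. After median-ratio scaling all 3 were above all controls, at 4.34, 7.78 and 4.55 against 1.79, 1.42 and 1.81 scaled FPKM (log2 fold change 1.26 ± 0.27 SE, unadjusted p = 0.00183, limma adjusted p = 0.422). Of 14 tested genes of collagen folding and its clients 0 were called, 10 had a positive log2 fold change and 4 a negative one, and the median was 0.43 (0.70 after scaling). With limma array weights 4 of them were called higher (Col1a1, Col3a1, Col4a2 and Crtap), against 3.37% of all tested genes. P4hb was at 159 ± 76.8 and 168 ± 57.6 FPKM and Ppib at 31.4 ± 20.4 and 36.2 ± 15.8 FPKM. The collagen gene Col1a1, named after its values were seen, was at 3.38, 7.25 and 2.06 FPKM in DEN+CCl4 liver and 0.99, 0.63 and 0.74 FPKM in controls, which did not overlap (limma adjusted p = 0.123). The summed stellate cell markers were 21.6 to 60.8 FPKM in DEN+CCl4 liver and 40.4 to 88.3 FPKM in controls, with 6 of 8 markers tested and 0 called. Ecm1 made up much of that sum (70.8 of 88.3 FPKM in control replicate 3). Acta2, the actin of activated stellate cells and smooth muscle, was at 2.87, 10.9 and 3.87 FPKM in DEN+CCl4 liver and 1.58, 1.44 and 1.08 FPKM in controls, without overlap (log2 fold change 1.36, limma adjusted p = 0.282). With array weights Acta2 was called higher. Lrat, below the filter, went the other way without overlap, at 0.31, 0.35 and 0.15 FPKM in DEN+CCl4 liver and 0.58, 0.46 and 0.40 FPKM in controls. The other tested markers had log2 fold changes of 0.40 (Pdgfrb), 0.23 (Des), 0.02 (Dcn), -0.03 (Colec11) and -0.86 (Ecm1). No stellate marker was at 0 in all libraries. The part of stellate cells in the Serpinh1 values was not tested.

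Clade B was low throughout, with 1 of 10 members tested and a summed level of 2.04, 3.09 and 2.69 FPKM in DEN+CCl4 liver and 2.25, 1.08 and 1.78 FPKM in controls. Serpinb6a, an intracellular inhibitor, stood at 0.82, 1.53 and 1.93 FPKM in DEN+CCl4 liver and 0.94, 0.43 and 0.52 FPKM in controls (log2 fold change 0.56 ± 0.39 SE, limma adjusted p = 0.934). Replicates 2 and 3 were above all controls, and replicate 1 was not. Its annotated exons overlap genes on the opposite strand, whose reads cannot be told apart without strand. The same limit holds for Serpinc1, which overlaps exons of Zbtb37, and for Serpina1c, which overlaps those of an antisense gene. Serpinb6b reached 0.78 FPKM and Serpinb1a, an inhibitor of neutrophil proteases, 0.60 FPKM. Serpinb9, which protects cells from granzyme B, was at 0.23 to 0.37 FPKM in DEN+CCl4 liver and 0.21 to 0.33 FPKM in controls. Many clade B members inhibit leukocyte granule proteases. Of a list of these that also held the lysosomal cathepsins Ctsl and Ctss, 3 genes were tested (Prtn3, Ctsl and Ctss) and 0 called. Elane, Ctsg, Gzma and Gzmb were below the filter. Prtn3 was at 1.41 ± 0.779 FPKM in DEN+CCl4 liver and 1.02 ± 1.53 FPKM in controls. Ctsl was at 5.45 ± 3.10 and 13.5 ± 7.04 FPKM and Ctss at 5.58 ± 1.19 and 3.70 ± 2.50 FPKM.

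Of the 19 members that were not tested, 3 reached 0.5 FPKM in any library: Serpinb6b, Serpinb1a and Serpine2. Serpine2, protease nexin 1, stood at 0.59, 0.14 and 0.04 FPKM in DEN+CCl4 liver and 0.85, 0.27 and 0.37 FPKM in controls. The other 16 stayed at 0.37 FPKM or below, among them the neuroserpin gene Serpini1 at 0 to 0.02 FPKM. Serpina1f, Serpina5, Serpinb1b and Serpinb9b were the 4 members listed at 0 in every control. Serpina3h, which GENCODE annotates as a pseudogene, was at 0.27, 0.29 and 0.08 FPKM against 0.05, 0.08 and 0.12 FPKM.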

How the data were processed

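The deposited table holds FPKM values with 2 decimals, and the authors gave each library a column, per the file headers. HISAT and StringTie with GRCm38 are named in the submitters' processing notes. For their versions, the annotation release and strand, the sources used here say nothing.

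The test was limma 3.58.1 in R 4.3.3 on log2(FPKM + 1), for genes averaging 1 FPKM or more (empirical Bayes with intensity trend, two-sided, no covariates) and Benjamini-Hochberg adjustment over 8528 genes at 0.05. Fold changes on this scale understate the change of low genes. An exact permutation test of 3 against 3 libraries cannot go below p = 0.1. Every tested member described was named; 1 gene that the name rule finds, and a list tied to it, are not reported here and enter no count of members. Of each pathway list, members that passed were to be named, or else its 2 most abundant genes; other genes of the lists were named after their values were seen. Members, lists and groupings were chosen with earlier results of these data known. The pairs of genes compared by a ratio were not in the plan, and no share over other gene pairs was computed beside them. Positions and coding sequences came from GENCODE M21 and promoters from RefSeq. The fit was also run on simulated data, with the spread of the controls in every library and no difference in scale between libraries. That run does not show how the fit performs on libraries as unlike as these. No 2 libraries held identical values. Python 3.11.15 with pandas 2.3.3 and matplotlib 3.10.9 did the rest.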

Additional observations from a re-analysis of the deposited data

How the results depend on the processing

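Of 17 alternatives, array weights changed a count of Serpin genes called. With limma array weights 4 members were called higher (Serpina3g, Serpina12, Serpina3f and Serpinh1) and 0 lower, against 3.37% and 1.57% of all genes. Those weights were 3.58, 0.422 and 0.0621 for DEN+CCl4 replicates 1, 2 and 3 and 1.502, 0.634 and 11.2 for the controls, and their estimation stopped before convergence. Leaving out 1 library gave 0 called higher and 0 called lower each time. The replicate block gave 0 and 0. Same-numbered libraries deviated from their group means with r of 0.0716, 0.416 and -0.146, and differently numbered ones with r of -0.372 to 0.228. With 3 libraries per group, these values cannot show whether the numbers pair the samples. Members with every DEN+CCl4 library above every control numbered 5 with median-ratio scaling and without DEN+CCl4 replicate 3 (12.8% of all genes), and 3 to 6 on leaving out 1 library (4.46% to 16.5%). Members below every control then numbered 0 to 10 (4.31% to 13.1%). Of the acute phase genes, Lcn2 was also called higher with a filter at a mean of 5 FPKM (0.422% of all tested genes). It was called higher without control replicate 1 as well (0.128%), and Socs3 with array weights (3.37%).

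The sign of the values as deposited was kept in 339 of 366 member and setting pairs, and 12 of 22 members never changed sign. With median-ratio scaling the log2 fold change turned positive for Serpina10 (0.29), Serpina1a (0.25), Serpina1b (0.41), Serpina7 (0.020) and Serpind1 (0.22). Without mitochondrially encoded genes it did so for Serpina10 (0.028) and Serpina1b (0.13). With array weights it was 0.31 for Serpina10, 0.11 for Serpina11, 0.054 for Serping1 and -0.33 for Serpina3m. Rescaled to TPM, Serpina3m was at -0.027. With median-ratio scaling and without DEN+CCl4 replicate 3 it was 0.17 for Serpina10, 0.15 for Serpina1a, 0.26 for Serpina1b, -0.091 for Serpina3m, 0.029 for Serpina6 and 0.018 for Serpind1. Leaving out 1 library gave -0.59 to 0.32 for Serpina10, -0.59 to 0.31 for Serpina1a, -0.50 to 0.43 for Serpina1b, -2.85 to 0.19 for Serpina6, -0.57 to 0.18 for Serpind1 and -0.19 to 0.66 for Serpinf2. The upper end came without DEN+CCl4 replicate 3 in all 6, and the lower end without DEN+CCl4 replicate 2 in all but Serpina10 (without control replicate 2). Without a change of sign, it gave -1.43 to -0.27 for Serpina1c, -1.46 to -0.54 for Serpina1d, -1.58 to -0.035 for Serpina11, -1.39 to -0.27 for Serpinc1, -1.05 to -0.30 for Serping1 and 0.47 to 1.55 for Serpinh1. The cause was not tested.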
